A study of Homo sapiens with 12 samples.

Results

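The 10 genes described here are AP-1 subunits and immediate early factors, chosen by name from the 60504 features of the expression table: JUN, JUNB, JUND, FOS, FOSB, FOSL2, JDP2, EGR1, DUSP1 and KLF6. The choice was made with earlier results of these data known. Poly(A) RNA was sequenced in 12 libraries. All are TKO cells, a derivative of KMS-11 (a line from a human myeloma, a plasma cell cancer) with the genotype label WHSC1(+/-), WHSC1 being an older name of the histone H3 lysine 36 methyltransferase NSD2. The 4 groups of 3 biological replicates were TKO cells with an expression vector for NSD2 p.D1240A, with one for NSD2 p.F1295A, with one for NSD2 without a named substitution (WT), and with no vector (TKO). All 4 groups share that genotype, and no treatment is given for any of them. No TKO line with an empty vector was analysed here, so each comparison with TKO also sets cells with a vector against cells without one. The labels do not say whether a line is 1 clone or a pool.

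AP-1 is a pair of basic leucine zipper proteins bound to DNA. JUN, JUNB and JUND pair with each other or with a partner of the FOS family, whereas FOS proteins bind stably only as partners of a JUN protein. Many of these genes are immediate early genes: signals through MAP kinases switch them on within minutes, without new protein synthesis, and both RNA and protein are short-lived. In B-lineage cells, AP-1 dimers that contain BATF bind composite sites together with IRF4.

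The plasma cell label was set against 9 markers of that cell type. All 9 were tested, and TNFRSF17, PRDM1, IRF4, XBP1, JCHAIN and MZB1 each stayed above 27.5 FPKM in every library, while SDC1, CD38 and SLAMF7 stayed at or below 4.29 FPKM. FPKM are fragments corrected for gene length and library total, here also rescaled between libraries. The summed level of the 9 markers was 3820 to 4146 FPKM in D1240A, 4636 to 5044 in F1295A, 4680 to 4912 in WT and 2337 to 2550 in TKO. Most of this sum was JCHAIN, at 1606 to 4127 FPKM over the libraries, and the next highest marker, XBP1, was at 253.6 to 433.3. Of 15 markers of other blood, stromal and epithelial cells, 5 were high enough to test, and the sum over all 15 was 4.20 to 5.32 FPKM in D1240A, 3.29 to 4.13 in F1295A, 4.56 to 5.30 in WT and 6.79 to 9.41 in TKO. The 5 tested were EPCAM (1.243 to 2.842 FPKM over the libraries), CD3E (0.4988 to 1.175), HBB (0 to 3.304), PECAM1 (0.1367 to 2.09) and COL1A1 (0.1655 to 1.585). PPBP and NKG7 were listed at 0 in all 12 libraries, and CD3D, MS4A1 and PAX5 stayed at or under 0.0592 FPKM. Both marker sums differ between TKO and the vector lines, as do several genes below, and their part in those results was not tested. Fewer cells of a kind and less RNA per cell cannot be told apart in such bulk samples. NSD2 itself averaged 251 ± 8.45 FPKM in D1240A, 164 ± 6.56 in F1295A, 191 ± 3.89 in WT and 60.1 ± 2.26 in TKO (SD, n = 3 each). D1240A replicate 2 stood apart: ribosomal RNA features held 51.4% of its FPKM sum, against 0.133% to 0.995% in the other libraries, and its log2 scaling factor was -0.30. Read numbers were not among the data used here. Depth is therefore unknown, and errors come from the replicates alone.

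Short motifs of factors that act on immediate early genes were looked for in the sequences before the transcription starts. All 10 genes matched RefSeq promoter entries of build GRCh38.p14, 12 entries in all because JDP2 has 3. In the 250 bases before each start, both strands were searched for the cAMP response element TGACGTCA, the AP-1 site TGANTCA, the JUN-type variant of that site TGACATCA, the CArG box bound by the serum response factor, the EGR site GCGNGGGCG, the E-box CACGTG and the TATA box TATAAA. No 2 of the matches overlapped. The 5 windows below are those of JUN, DUSP1, KLF6 and JDP2, whose RNA levels separated the groups, and of EGR1, which stayed near 0. Each runs 5′ to 3′ on the strand of its gene, and capitals mark the matches.
JUN, chr1:58784048-58784297, minus strand: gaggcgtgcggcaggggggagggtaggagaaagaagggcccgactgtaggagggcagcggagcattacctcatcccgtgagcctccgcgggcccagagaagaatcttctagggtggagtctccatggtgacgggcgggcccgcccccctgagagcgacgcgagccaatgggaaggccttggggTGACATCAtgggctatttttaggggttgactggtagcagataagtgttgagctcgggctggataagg
DUSP1, chr5:172771196-172771445, minus strand: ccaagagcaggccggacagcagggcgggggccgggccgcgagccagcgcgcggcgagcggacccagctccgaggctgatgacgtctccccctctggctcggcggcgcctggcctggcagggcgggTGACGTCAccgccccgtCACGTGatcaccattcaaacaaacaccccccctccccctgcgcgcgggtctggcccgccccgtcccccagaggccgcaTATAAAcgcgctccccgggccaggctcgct
KLF6, chr10:3785210-3785459, minus strand: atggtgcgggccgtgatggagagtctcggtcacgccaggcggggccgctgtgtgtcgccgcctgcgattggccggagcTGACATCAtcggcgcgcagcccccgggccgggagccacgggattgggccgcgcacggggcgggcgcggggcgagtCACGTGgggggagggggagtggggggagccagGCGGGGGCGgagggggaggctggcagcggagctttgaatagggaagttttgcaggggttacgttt
JDP2, chr14:75427474-75427723, plus strand, the first of its entries: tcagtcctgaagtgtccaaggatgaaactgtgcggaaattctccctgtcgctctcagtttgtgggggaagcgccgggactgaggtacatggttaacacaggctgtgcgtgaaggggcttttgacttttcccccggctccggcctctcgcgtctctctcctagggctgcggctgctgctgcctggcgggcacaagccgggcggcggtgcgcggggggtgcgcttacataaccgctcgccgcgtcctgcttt
EGR1, chr5:138465229-138465478, plus strand: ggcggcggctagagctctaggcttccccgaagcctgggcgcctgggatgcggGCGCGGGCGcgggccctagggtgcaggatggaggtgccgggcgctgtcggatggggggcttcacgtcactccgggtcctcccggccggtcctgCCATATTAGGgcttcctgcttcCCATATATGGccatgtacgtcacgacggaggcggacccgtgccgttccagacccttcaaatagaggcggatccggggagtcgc

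JUN and KLF6 both held TGACATCA, which 2.37% of all 35116 promoter windows of this length hold, at 67 to 60 bases before the start in JUN and 172 to 165 bases before it in KLF6. DUSP1 held TGACGTCA, at 125 to 118 bases before its start, and so did JUND, at 200 to 193 bases. That element is in 1.65% of all windows. EGR1 held a pair of CArG boxes, CCATATTAGG and CCATATATGG, at 105 to 96 and 83 to 74 bases before its start, and 1.16% of all windows hold a CArG box. DUSP1, FOS, JUNB and FOSB had the TATA box between 33 and 25 bases before the start, against 10.7% of all windows that hold it anywhere. The E-box, in 6.34% of all windows, was in DUSP1 and KLF6. The EGR site, in 8.41% of all windows, was in EGR1 and KLF6 and in the other 2 entries of JDP2. The first JDP2 entry and FOSL2 held no match. No window of the 10 genes held TGANTCA, which 6.57% of all windows hold. These matches describe letters in the reference and not binding in these cells.

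The levels of the 10 genes spanned a wide range in these cells. JUNB, JUND and KLF6 were each between 17.4 and 39.3 FPKM in every library. DUSP1, JUN and JDP2 came next, with highest values of 6.05, 3.93 and 7.28 FPKM. FOSL2 ranged from 0.384 to 0.953 FPKM, while FOS, FOSB and EGR1 were too low to test. A gene was tested where 3 or more libraries reached 0.5 FPKM, and 7 of the 10 were, among 14391 genes in all. JDP2 and FOSL2 passed on 9 libraries each. For JDP2 these were the 9 libraries with a vector, so that its passing already depended on the groups where it was high.

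**Figure D1:**
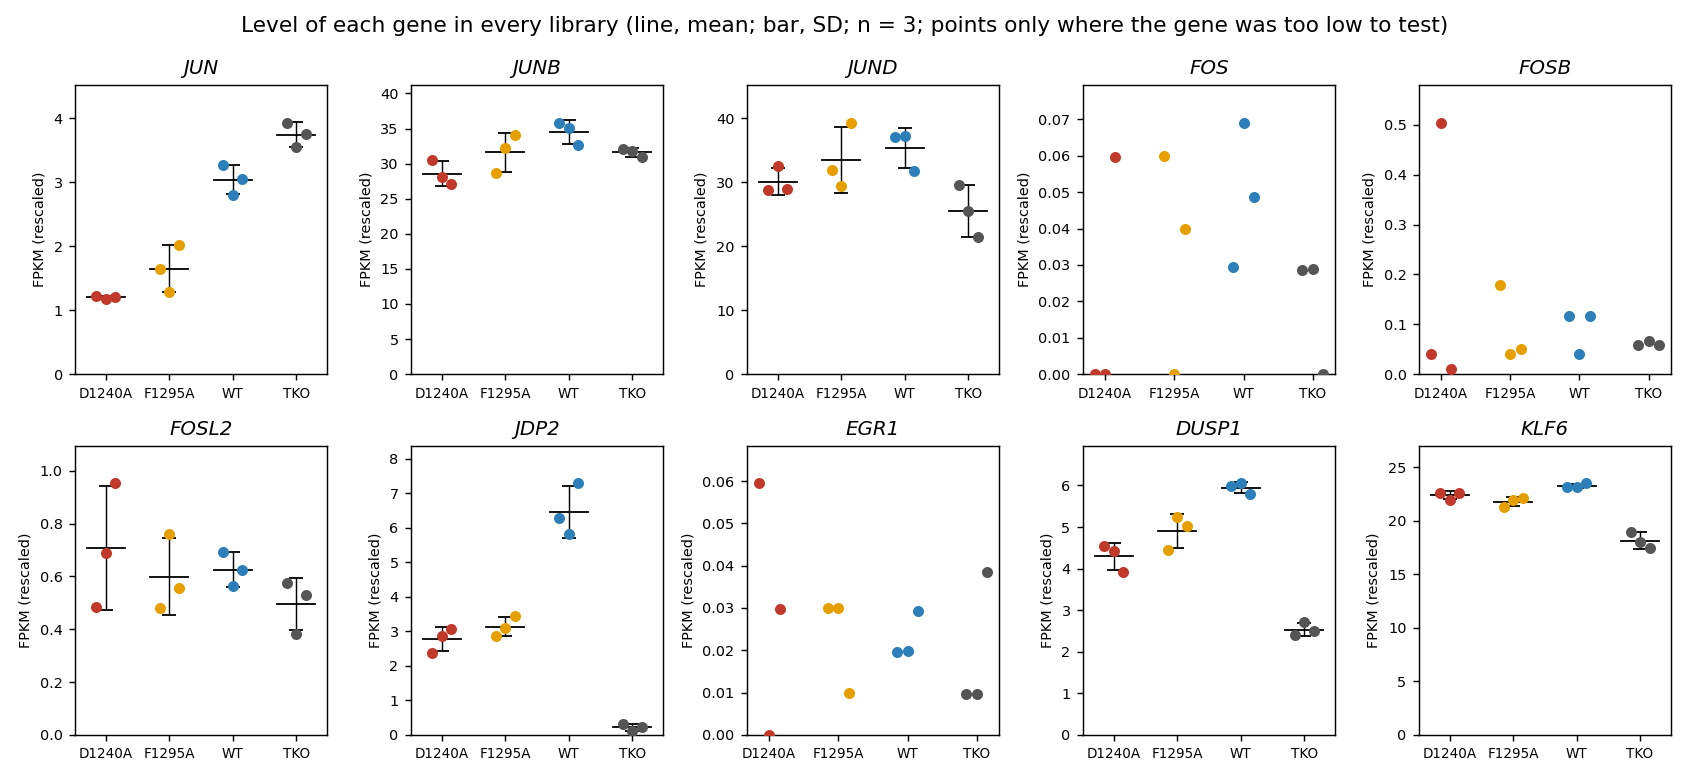
Rescaled FPKM (vertical axes, each with its own range from 0) of the 10 genes in every library, with 3 libraries in each of the groups D1240A, F1295A, WT and TKO (horizontal axes). Lines are means and bars SD, left out for FOS, FOSB and EGR1; JUN is lowest in D1240A and highest in TKO, JDP2 is near 0 only in TKO, and FOS and EGR1 stay under 0.07 FPKM throughout.

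A gene was called where limma's adjusted p, by the Benjamini-Hochberg method over all 14391 genes, was under 0.05. In D1240A against TKO, 4 of the 7 tested genes were called, 3 higher and 1 lower, beside 44.5% of all tested genes (23.3% higher and 21.2% lower). For F1295A against TKO it was 5, with 4 higher and 1 lower, beside 45.7% (23.8% higher and 21.9% lower). In WT against TKO 4 were called, each of them higher, beside 49.7% (25.8% higher and 23.9% lower). D1240A against WT gave 4 calls, each lower, beside 19.1% (8.2% higher and 10.9% lower), and F1295A against WT gave 2, each lower, beside 2.71% (0.896% higher and 1.81% lower). D1240A against F1295A gave 0 calls by limma, beside 6.09% of all genes called (3% higher and 3.09% lower). At an unadjusted p under 0.05 it gave 3, with no share of all genes at that threshold to set beside them. Groups did not overlap for 5 of the 7 genes in D1240A against TKO (52.5% of all tested genes), 4 in F1295A against TKO (55.7%), 6 in WT against TKO (60.4%), 5 in D1240A against WT (35.4%), 4 in F1295A against WT (22.9%) and 1 in D1240A against F1295A (24%). The median log2 change of the 7 genes was 0.27, 0.26 and 0.35 in D1240A, F1295A and WT against TKO, -0.27 and -0.13 in D1240A and F1295A against WT, and -0.15 in D1240A against F1295A. Over all tested genes these medians lay between -0.01 and 0.01. On the values as deposited, the all-gene median was -0.12 in D1240A against TKO and -0.10 in D1240A against WT. Of the genes called there, 29.5% and 15.5% were higher, against 52.3% and 42.9% after rescaling, and in F1295A against WT it was 19.1% against 33.1%. The comparisons with TKO share the TKO libraries, and those with WT share the WT libraries. JDP2, which passed the filter only through the libraries with a vector, is among the genes called higher in each comparison with TKO. The genes described here were also chosen with earlier results of these data known, so these counts and medians are a description. Log2 changes are of FPKM + 0.5 and understate the change of low genes.

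**Figure D2:**
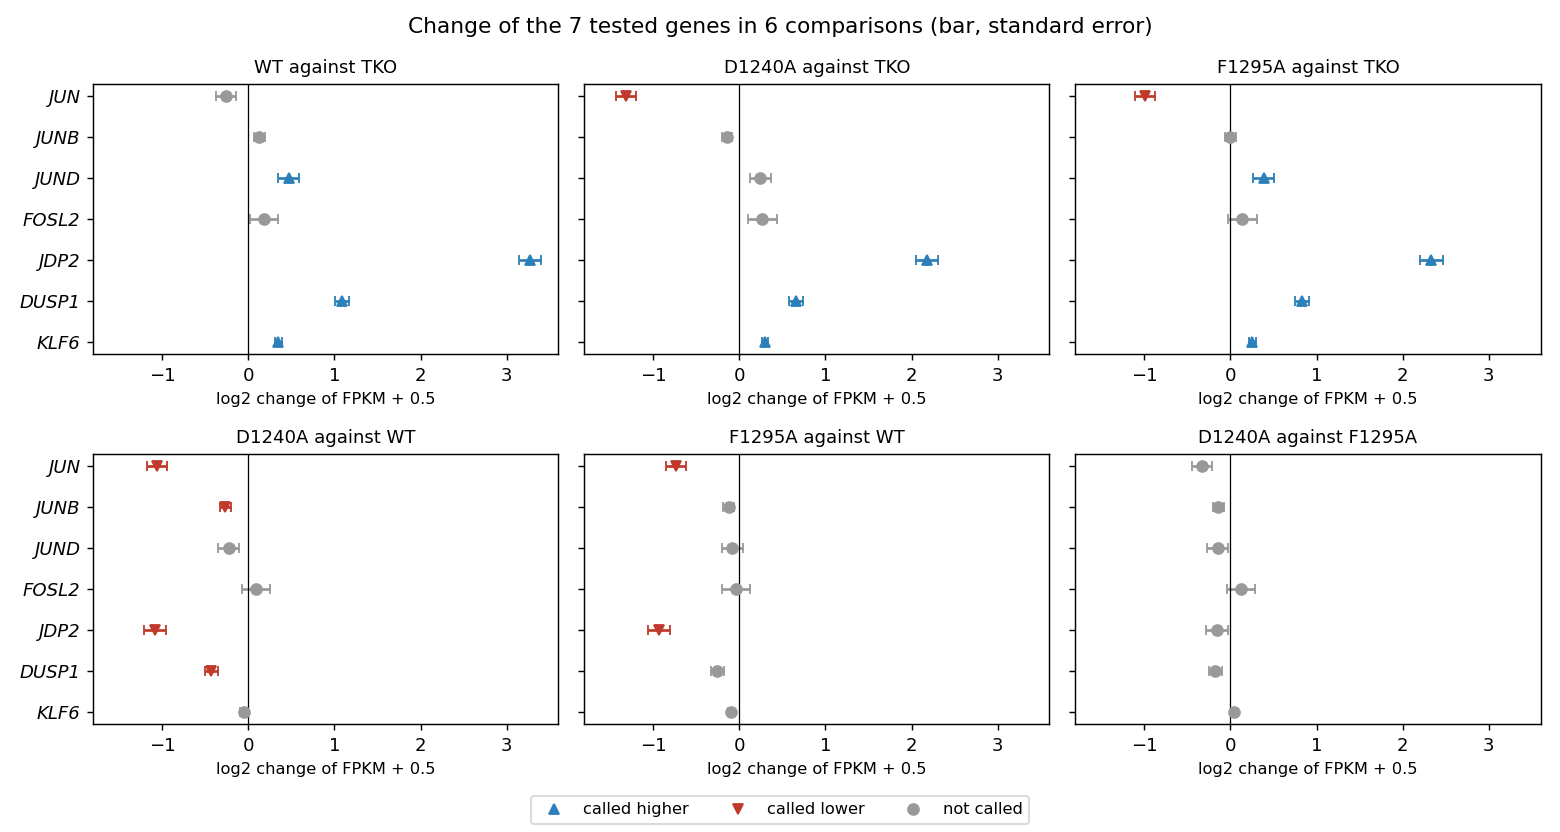
Log2 change of FPKM + 0.5 (horizontal axes) of the 7 tested genes (rows) in the 6 comparisons (panels), with standard errors as bars. Upward triangles were called higher and downward triangles lower in the group named first, and circles were not called; JUN is called lower in both mutants against WT and against TKO, and JDP2 is called in 5 of the 6 panels.

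JUN, the founding member of AP-1 and the target of the JNK kinases, was lower in both mutant lines than in either of the other groups. It measured 1.23, 1.17 and 1.20 FPKM in D1240A, 1.65, 1.28 and 2.02 in F1295A, 3.26, 2.80 and 3.06 in WT, and 3.93, 3.55 and 3.76 in TKO. The libraries of the 4 groups did not overlap, with D1240A lowest, F1295A next, then WT and TKO highest. The log2 change was -1.06 ± 0.12 (SE) in D1240A against WT (limma, adjusted p = 0.000113) and -0.73 ± 0.12 in F1295A against WT (adjusted p = 0.00715). The F1295A call was lost when only those 2 groups entered the model, with an adjusted p of 0.0525, over a range of 0.00365 to 0.0525 in all alternatives. Against TKO, JUN fell by 1.32 in D1240A (adjusted p = 2.61e-06) and by 0.99 in F1295A (adjusted p = 2.40e-05). WT against TKO gave -0.26, with a 95% interval of -0.52 to -0.01 and an adjusted p of 0.0792, which was not a call. D1240A against F1295A gave -0.33 (95% interval -0.58 to -0.07), with an adjusted p of 0.122 that became 0.0497 without F1295A replicate 2. The median log2 change of the 50 tested genes nearest to JUN on chromosome 1, where it lies (GRCh38) at 58780788 to 58784327, was between -0.02 and 0.08 in the 6 comparisons.

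JUNB and JUND, the family members that can dampen or replace JUN at its sites, made up nearly all of the JUN-family RNA, and their changes were smaller than those of JUN in the mutants. JUNB measured 30.6, 28.1 and 27.1 FPKM in D1240A, 28.6, 32.2 and 34.1 in F1295A, 35.8, 35.1 and 32.6 in WT, and 32.1, 31.8 and 30.9 in TKO. Each D1240A library was under each WT and each TKO library, and F1295A overlapped both WT and TKO. JUNB fell by 0.27 ± 0.06 in D1240A against WT (limma, adjusted p = 0.0133), which was its single call in the 6 comparisons. Leaving out WT replicate 1 (adjusted p = 0.0558) or D1240A replicate 3 (adjusted p = 0.0530) ended that call, in a range of 0.00519 to 0.0558 over all alternatives. D1240A against TKO gave -0.14 (adjusted p = 0.0904), a call on the values as deposited (0.0352) and without D1240A replicate 1 (0.0398) or F1295A replicate 1 (0.0422). WT against TKO gave 0.12 (adjusted p = 0.128), a call with only those 2 groups (0.0408). The 50 nearest tested genes had medians of -0.14, -0.10 and -0.15 in D1240A, F1295A and WT against TKO, and with these removed the values were -0.003, 0.10 and 0.27 (adjusted p = 0.973, 0.166 and 0.00167). F1295A against TKO was -0.00, with a 95% interval of -0.14 to 0.14. The annotated span of HOOK2 covers JUNB on the opposite strand, at 1.77 to 6.81 FPKM as deposited, and whether the counting used strand is not given.

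JUND measured 28.9, 32.5 and 28.9 FPKM in D1240A, 31.9, 29.4 and 39.3 in F1295A, 37.1, 37.3 and 31.7 in WT, and 29.5, 25.6 and 21.5 in TKO. The WT libraries lay above all TKO libraries, while the D1240A and F1295A libraries overlapped TKO. JUND rose in WT against TKO by 0.47 ± 0.12 (limma, adjusted p = 0.00738) and in F1295A against TKO by 0.39 ± 0.12 (adjusted p = 0.0221). The F1295A call was lost without F1295A replicate 3 (adjusted p = 0.0908) or TKO replicate 3 (adjusted p = 0.0943), with no filter on low values (0.0595) and on the values as deposited (0.0573). D1240A against TKO gave 0.24 with a 95% interval of -0.03 to 0.51 and an adjusted p of 0.132, and became a call without TKO replicate 1 (adjusted p = 0.0426) and with neighbour medians removed (0.0394). Neither mutant was called against WT, with 95% intervals of -0.50 to 0.04 for D1240A and -0.35 to 0.19 for F1295A.

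Since FPKM are per length, the makeup of the JUN family can be read within a library. JUN was 2.01 ± 0.105% of the summed JUN, JUNB and JUND FPKM in D1240A, 2.46 ± 0.36% in F1295A, 4.18 ± 0.411% in WT and 6.17 ± 0.453% in TKO (SD, n = 3 each). The share of JUN ran from 1.89% to 2.68% in the mutant libraries, from 3.73% to 4.54% in WT and from 5.83% to 6.69% in TKO, with no overlap between these ranges. JUND held 50.3 ± 2.53% in D1240A, 50.1 ± 2.87% in F1295A, 48.4 ± 1.28% in WT and 41.8 ± 3.40% in TKO. The family sum was 59.9 ± 2.37 FPKM in D1240A, 66.9 ± 7.47 in F1295A, 72.9 ± 4.79 in WT and 60.9 ± 4.66 in TKO.

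**Figure D3:**
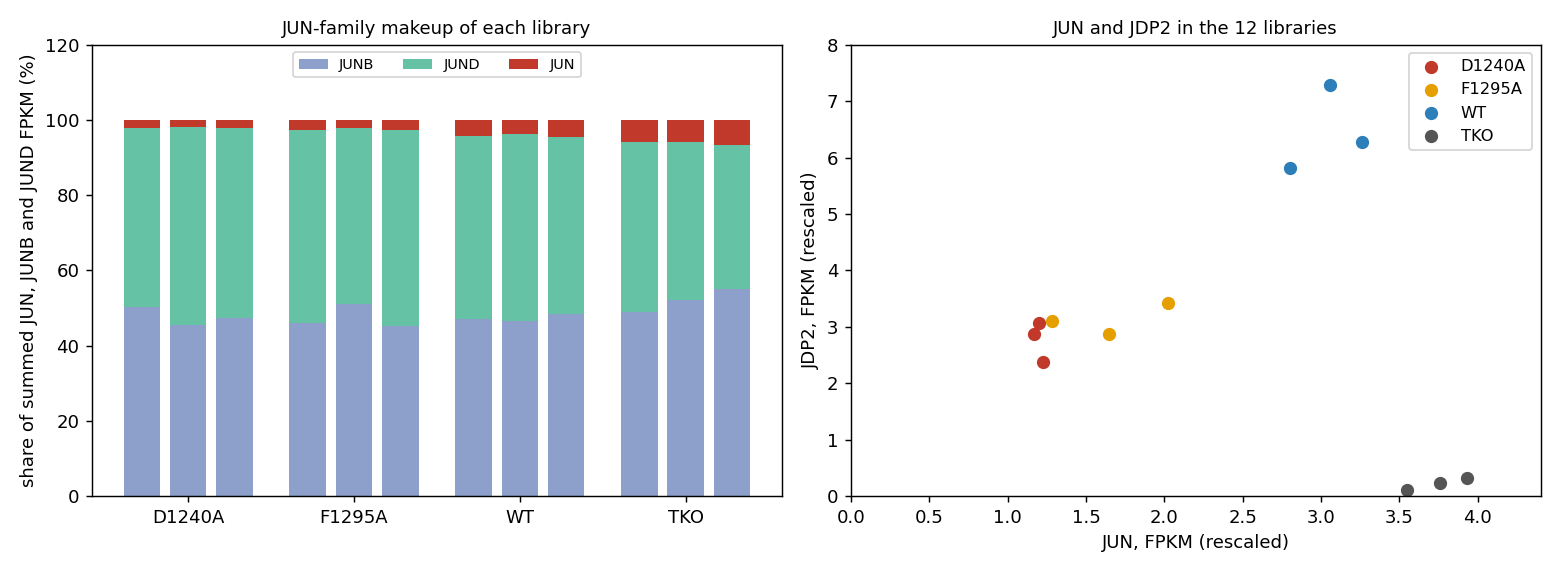
Left, shares of JUNB, JUND and JUN in their summed FPKM (percent, stacked from 0) in each of the 12 libraries, grouped as D1240A, F1295A, WT and TKO. Right, JDP2 against JUN (rescaled FPKM) with 1 point per library; the WT points are high on both axes, the D1240A and F1295A points lower on both, and the TKO points have the highest JUN and almost no JDP2.

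JDP2, a leucine zipper protein that pairs with JUN and represses AP-1 sites, had the smallest p across the 4 groups among the 7 tested genes. It passed the filter at 0.5 FPKM only through the libraries with a vector. That rank and its tests against TKO therefore depend on the groups where it was high, and are given as a description. It measured 2.38, 2.87 and 3.08 FPKM in D1240A, 2.87, 3.10 and 3.43 in F1295A, 6.27, 5.81 and 7.28 in WT, and 0.316, 0.115 and 0.241 in TKO. All TKO libraries lay near 0, all WT libraries lay on top, and the 2 mutants overlapped each other in between. Mean FPKM was 28.8-fold higher in WT than in TKO, 12.4-fold higher in D1240A and 14.0-fold higher in F1295A. These ratios divide by a TKO mean that lay under the filter. On the log2 scale the rise was 2.18 ± 0.13 in D1240A, 2.33 ± 0.13 in F1295A and 3.27 ± 0.13 in WT against TKO (limma, adjusted p = 1.06e-07, 5.10e-08 and 2.45e-09). With a pseudocount of 0.1 or 1 in place of 0.5, the WT value was 4.39 or 2.61. Against WT, JDP2 fell by 1.09 ± 0.13 in D1240A (adjusted p = 0.000193) and by 0.93 ± 0.13 in F1295A (adjusted p = 0.00342), and both calls held in every alternative run. D1240A against F1295A gave -0.15 (95% interval -0.44 to 0.13). JDP2 lies on chromosome 14 at 75427716 to 75474111, close to FOS at 75278774 to 75282230, and its 50 nearest tested genes had median log2 changes of 0.11 to 0.12 against TKO.

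FOS, the partner of JUN in the AP-1 dimer of stimulated cells, was barely detected. It was listed at 0, 0 and 0.0595 FPKM in D1240A, 0.0599, 0 and 0.0399 in F1295A, 0.0293, 0.0691 and 0.0487 in WT, and 0.0287, 0.0288 and 0 in TKO. The lowest WT value lay just above the highest TKO value, all other pairs of groups overlapped, and no library came near the 0.5 FPKM needed for testing. FOSB, its close relative, was listed at 0.0396, 0.504 and 0.00992 in D1240A, 0.180, 0.0401 and 0.0498 in F1295A, 0.117, 0.0395 and 0.117 in WT, and 0.0574, 0.0672 and 0.0578 in TKO. The one FOSB value past 0.5 FPKM came from D1240A replicate 2, the library with the large ribosomal RNA share. FOSB lies inside the span of ERCC1, a repair gene on the opposite strand at 34.5 to 45.2 FPKM as deposited, so without a known strand setting its few reads cannot be assigned with certainty.

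FOSL2, a FOS relative with roles in bone, had the highest level of the 3 FOS-family genes described here in each library. FOSL2 measured 0.485, 0.689 and 0.953 FPKM in D1240A, 0.479, 0.762 and 0.558 in F1295A, 0.693, 0.563 and 0.623 in WT, and 0.574, 0.384 and 0.530 in TKO. All pairs of groups overlapped, and no comparison was called. The 95% interval that reached farthest from 0 was that of D1240A against TKO, -0.09 to 0.63 around a log2 change of 0.27. The sum of FOS, FOSB and FOSL2, which is not the whole FOS family, came to 0.480 to 1.19 FPKM per library. That of JUN, JUNB and JUND was 56.2 to 76.2 FPKM.

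EGR1, a zinc finger factor induced by ERK signals through the serum response factor, was near 0 in every library. It was listed at 0.0594, 0 and 0.0298 FPKM in D1240A, 0.0299, 0.0301 and 0.00996 in F1295A, 0.0195, 0.0197 and 0.0292 in WT, and 0.00957, 0.00959 and 0.0385 in TKO. All of its groups overlapped, and the window with its CArG boxes is printed above. With no filter on low values, FOS, FOSB and EGR1 had adjusted p values of 0.387 or more in all 6 comparisons.

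DUSP1, the nuclear phosphatase that switches off p38, JNK and ERK, rose in all 3 vector lines. It measured 4.54, 4.42 and 3.92 FPKM in D1240A, 4.46, 5.25 and 5.02 in F1295A, 6.00, 6.05 and 5.79 in WT, and 2.39, 2.71 and 2.504 in TKO. TKO lay below all other libraries, WT above them, and D1240A and F1295A overlapped between. The log2 change against TKO was 0.66 ± 0.08 in D1240A, 0.83 ± 0.08 in F1295A and 1.09 ± 0.08 in WT (limma, adjusted p = 3.01e-05, 3.70e-06 and 3.34e-07). DUSP1 lies on chromosome 5 at 172768090 to 172771195, and its 50 nearest tested genes were higher too, with median log2 changes of 0.53, 0.55 and 0.55 in D1240A, F1295A and WT against TKO. With those medians removed, the changes were 0.12, 0.29 and 0.54, with adjusted p values of 0.262, 0.0157 and 0.000229, so that the D1240A call was lost. Between the vector lines these medians were -0.01, -0.00 and -0.01, and DUSP1 fell by 0.43 ± 0.08 in D1240A against WT (adjusted p = 0.00286). F1295A against WT gave -0.26 (95% interval -0.43 to -0.09), with an adjusted p of 0.116.

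**Figure D4:**
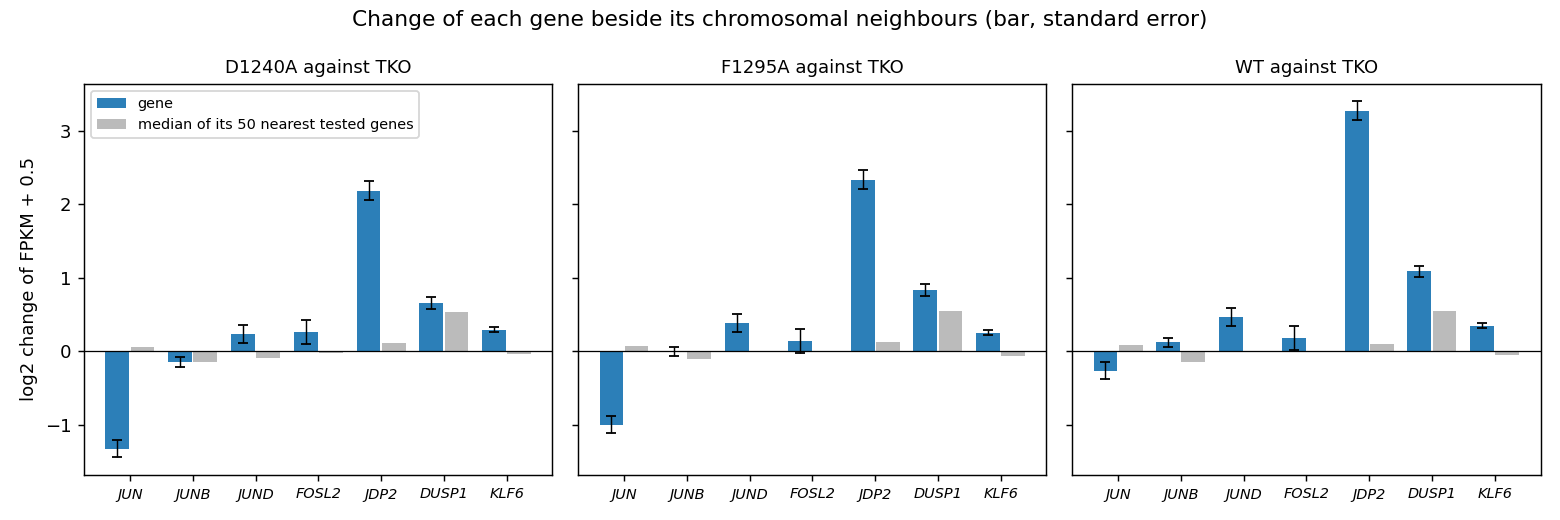
Log2 change of FPKM + 0.5 (vertical axis) of the 7 tested genes in D1240A, F1295A and WT against TKO, with standard errors (left bar of each pair), beside the median change of the 50 tested genes nearest on the chromosome (right bar). The neighbours of DUSP1 sit at 0.53 to 0.55, while those of JUN, JDP2 and KLF6 stay between -0.06 and 0.12. Those of JUNB sit at -0.15 to -0.10, and those of JUND are at -0.10 in D1240A.

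KLF6, a zinc finger factor of the Krüppel-like family, was expressed at a steady level that was higher with each vector. It measured 22.6, 22.0 and 22.6 FPKM in D1240A, 21.3, 21.9 and 22.1 in F1295A, 23.2, 23.1 and 23.5 in WT, and 19.0, 18.1 and 17.4 in TKO. TKO lay below all the others, and all mutant libraries lay just below all WT libraries. KLF6 rose against TKO by 0.30 ± 0.04 in D1240A, 0.26 ± 0.04 in F1295A and 0.35 ± 0.04 in WT (limma, adjusted p = 5.50e-05, 0.000153 and 1.05e-05). On the values as deposited, with no rescaling, the D1240A and F1295A values were 0.15 and 0.20, with adjusted p values of 0.204 and 0.0996. Neither mutant was called against WT, where the 95% intervals were -0.14 to 0.03 for D1240A and -0.18 to -0.01 for F1295A.

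Other basic leucine zipper genes, listed as relatives of the AP-1 and ATF factors, were called higher more often than lower with a vector. Of 22 tested from a list of 25, 11 rose and 1 fell in D1240A against TKO, beside 23.3% higher and 21.2% lower of all tested genes. In F1295A against TKO 12 rose and 3 fell, beside 23.8% and 21.9%, and in WT against TKO 11 rose and 3 fell, beside 25.8% and 23.9%. The list's median log2 change was 0.21, 0.18 and 0.29 in these comparisons, beside 0.01, -0.00 and -0.01 over all tested genes. Against WT, 1 rose and 6 fell in D1240A (8.2% and 10.9% of all tested genes), and 0 rose and 2 fell in F1295A (0.896% and 1.81%). As with the lists below, the genes were chosen with earlier results of these data known, so the counts are a description. ATF4, the main effector of the integrated stress response, averaged 503 ± 16.9 FPKM in D1240A, 546 ± 4.65 in F1295A, 548 ± 3.14 in WT and 296 ± 10.2 in TKO. NFE2L1, which drives proteasome genes, averaged 77.4 ± 1.91, 72.0 ± 1.59 and 75.9 ± 1.99 FPKM in D1240A, F1295A and WT, against 44.0 ± 0.224 in TKO. ATF5, a stress-response factor, averaged 239 ± 0.352, 213 ± 6.02 and 226 ± 3.59 FPKM in D1240A, F1295A and WT, against 161 ± 1.09 in TKO.

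Other immediate early genes moved both ways. Of 35 tested from a list of 44, 9 rose and 13 fell in D1240A against TKO, where 44.5% of all tested genes were called. For F1295A against TKO 8 rose and 14 fell (45.7% of all called), and for WT against TKO 13 rose and 13 fell (49.7% of all called). Against WT, 7 rose and 14 fell in D1240A (19.1% of all called), and 1 rose and 5 fell in F1295A (2.71% of all called), with list medians of -0.18 and -0.14. DUSP5, an ERK phosphatase, averaged 4.27 ± 0.0459 FPKM in D1240A, 4.33 ± 0.166 in F1295A, 7.10 ± 0.133 in WT and 11.4 ± 0.368 in TKO. Like those of JUN, its group means were highest in TKO, next in WT and lower in both mutants. DUSP5 fell by 0.67 in D1240A and by 0.66 in F1295A against WT (limma, adjusted p = 6.74e-06 and 7.12e-05). The mutants did not differ in DUSP5, with -0.02 in D1240A against F1295A (adjusted p = 0.886). ID2 and ID1, helix-loop-helix inhibitors without a DNA-binding region, moved in opposite directions: in D1240A, F1295A and WT against TKO, the log2 changes were -1.23, -1.61 and -2.05 for ID2 and 1.43, 1.68 and 1.95 for ID1.

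Of the kinases and factors upstream of AP-1, 35 of 36 were tested. In D1240A, F1295A and WT against TKO, 9, 8 and 11 rose and 7, 6 and 10 fell, where 44.5%, 45.7% and 49.7% of all tested genes were called. D1240A against WT gave 4 higher and 3 lower, a share near the 19.1% of all tested genes. F1295A against WT and D1240A against F1295A gave 0 calls each by limma, where 2.71% and 6.09% of all tested genes were called. At an unadjusted p under 0.05 they gave 5 and 8 genes, with no share of all genes at that threshold to set beside them. RPS6KA3, an ERK-activated kinase, averaged 16.6 ± 1.92 FPKM in D1240A, 15.6 ± 1.11 in F1295A, 14.5 ± 0.578 in WT and 30.1 ± 0.563 in TKO. MAPK9, which encodes the JUN kinase JNK2, rose by 0.46, 0.54 and 0.54 against TKO in D1240A, F1295A and WT, and neither mutant was called against WT. MAPK3, which encodes the kinase ERK1, rose by 0.29, 0.45 and 0.42 in the same comparisons.

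Textbook AP-1 target genes were mostly too low to test, and the 11 tested of 26 moved both ways. In D1240A and in F1295A against TKO 5 rose and 4 fell, beside 44.5% and 45.7% of all tested genes called, and in WT against TKO 4 rose and 4 fell, beside 49.7%. The list's medians were 0.25, 0.06 and 0.11. Against WT, 5 rose and 2 fell in D1240A, beside 8.2% and 10.9% of all tested genes, and 1 rose and 0 fell in F1295A, beside 0.896% and 1.81%. VIM, the intermediate filament vimentin, averaged 1048 ± 19.7 FPKM in D1240A, 1039 ± 8.04 in F1295A, 1102 ± 33.0 in WT and 607 ± 2.10 in TKO. MMP9, a matrix protease, averaged 1.48 ± 0.0508 FPKM in D1240A, 0.869 ± 0.0642 in F1295A, 0.611 ± 0.134 in WT and 6.14 ± 0.490 in TKO. HMOX1, the stress-induced heme oxygenase, averaged 13.4 ± 0.689 FPKM in D1240A, 10.8 ± 0.610 in F1295A, 10.01 ± 0.755 in WT and 27.0 ± 0.710 in TKO. Both rose in D1240A against WT, MMP9 by 0.84 (limma, adjusted p = 0.000308) and HMOX1 by 0.41 (adjusted p = 0.000967).

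For the 3 members with the smallest p across the groups, the protein-coding genes with the most similar levels over the 12 libraries were listed. The libraries form 4 groups, so each correlation mostly restates the group means and is given as a description. JDP2 was most like GNAI1, RUNX2 and MYO6, with Pearson's r of 0.993, 0.993 and 0.989 over 12 libraries. DUSP1 was most like PCK2, CD55 and MGST3, with r of 0.995, 0.991 and 0.991. JUN was most like IRX3, CST3 and MAN1A1, with r of 0.977, 0.961 and 0.958. IRX3, a homeobox factor, averaged 2.22 ± 0.130 FPKM in D1240A, 2.71 ± 0.364 in F1295A, 3.50 ± 0.263 in WT and 4.26 ± 0.0814 in TKO. RUNX2, a factor of bone development, averaged 22.6 ± 1.02 in D1240A, 24.0 ± 0.496 in F1295A, 27.6 ± 0.975 in WT and 16.1 ± 0.376 in TKO.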

How the data were processed

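Each library has an FPKM value per gene in the deposited table, made by the authors with RSEM 1.3.1 after trimming with Trimmomatic 0.36, inspection with FastQC 0.11.4 and alignment to GRCh38 with STAR 2.7.9a, per the submitters' processing notes, which also name DESeq2. The unit was read from the values and column names. The annotation release and the strand setting were not found in the labels. Depth is unknown, so precision was judged from the 3 libraries of each group, which the labels call biological replicates without saying whether cultures were separate. If they were not, p-values measure technical spread.

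Coordinates are from GENCODE 29 (GRCh38), which holds 56996 of the 60504 features. Structural RNA features (7089) were left out. Rescaling used the log2 ratio of each library to the average of all libraries, taken over genes averaging 1 FPKM or more, as a mean trimmed by 30% at both ends. The 14391 genes that reached 0.5 FPKM in 3 or more libraries entered 1 model of log2(FPKM + 0.5) in the 12 libraries, fitted by limma 3.58.1 (R 4.3.3) on group alone with a variance trend and Benjamini-Hochberg adjustment. Intervals of 95% are unadjusted. The steps were tested on simulated data. Members and lists were chosen with earlier results of these data known. All members are named, with the 3 genes of each list with the smallest p across groups and the 3 genes most like each of 3 members. Alternatives were other scalings, filters and pseudocounts, library weights, structural RNAs kept, a replicate block, the median of 50 neighbouring genes subtracted, a model of the 2 compared groups alone, and each library left out. Other software was Python 3.11.15, pandas 2.3.3, numpy 2.4.6 and matplotlib 3.10.9.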

Additional observations from a re-analysis of the deposited data

Results flagged for a closer look

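Some changes from TKO differed between a mutant line and the WT line, by the direct limma test of mutant against WT. In D1240A this held for 4 of the 7 tested genes, beside 19.1% of all tested genes: JUN (log2 change against WT of -1.06), JDP2 (-1.09), DUSP1 (-0.43) and JUNB (-0.27). For F1295A it held for 2, beside 2.71% of all tested genes: JUN (-0.73) and JDP2 (-0.93). The genes were chosen with earlier results of these data known, so these counts are a description. The D1240A call of JUNB and the F1295A call of JUN were each lost in some of the alternatives. JUNB was called in neither D1240A nor WT against TKO, where its values were -0.14 and 0.12. JUN was called against TKO in D1240A (-1.32) and F1295A (-0.99), while its WT value was -0.26. JDP2 and DUSP1 rose against TKO in each of the vector lines, with smaller values in the mutants than in WT. For JDP2 these tests depend on the vector libraries through which it passed the filter. With neighbour medians removed, the DUSP1 change in D1240A against TKO was 0.12 and not a call (limma, adjusted p = 0.262). DUSP1 in F1295A against WT was not called either (adjusted p = 0.116). NSD2 RNA itself also differed from WT, by 0.39 in D1240A and by -0.22 in F1295A (limma, adjusted p = 5.27e-05 and 0.0138). The substitution and the NSD2 level cannot be told apart in these comparisons, and the part of that level was not tested.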

How the results depend on the processing

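Over the 42 pairs of member and comparison, 960 values were computed under the alternatives: 924 kept direction and side of the threshold, 10 lost the call, 12 gained one and 14 turned direction. The count of called members moved by over 1.5 times in 3 places: it was 3 on the values as deposited for F1295A against TKO, and 1 with only the 2 compared groups for F1295A against WT. In D1240A against F1295A it ranged from 0 to 1 over the left-out libraries, the 1 being JUN without F1295A replicate 2. The values that turned were uncalled and close to 0. JUNB in F1295A against TKO gave 0.0061 with library weights, 0.10 with neighbour medians removed, and -0.0559 to 0.0691 over left-out libraries. FOSL2 in F1295A against WT gave 0.0054 with library weights and -0.1449 to 0.0387 over left-out libraries, in D1240A against WT -0.0556 to 0.2243, and in D1240A against F1295A -0.0145 to 0.2652. JUND in F1295A against WT gave -0.1987 to 0.0072, and KLF6 in D1240A against F1295A was -0.0515 as deposited. JUN in WT against TKO was called with only the 2 groups (adjusted p = 0.0266), with neighbour medians removed (0.0296), and without F1295A replicate 2 (0.0329) or 3 (0.0375). The causes were not tested. With D1240A replicate 2 left out, the members called in each direction numbered the same in all 6 comparisons. Replicate numbers are shared between groups. Same-numbered libraries correlated weakly in their deviations from group means (-0.06 to 0.14, median 0.045). Differently numbered ones gave -0.18 to 0.15 (median -0.0335), and 6 of 12 libraries correlated best with their own number. The main model did not treat same-numbered libraries as pairs, and the lean towards shared numbers was not tested. With the replicate block the counts of called members in D1240A, F1295A and WT against TKO, D1240A and F1295A against WT, and D1240A against F1295A were 4, 5, 4, 4, 2 and 0, as without it, and 272 genes in all were called in F1295A against WT and 525 in D1240A against F1295A, beside 390 and 876. Over all genes, D1240A against WT gave 1608 calls as deposited, 1772 with the 2 groups alone and 1723 without WT replicate 1, beside 2754. F1295A against WT gave 89 as deposited, 255 with the 2 groups alone, 614 with library weights and 149 to 514 over left-out libraries, and D1240A against F1295A gave 63, 91, 683 and 310 to 1224, and 432 with no filter. FOSL2 was not tested with a filter at 1 FPKM. Unknown depth limits what can be said of FOS, FOSB and EGR1.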

Other observations

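The ratio of JDP2 to JUN FPKM, a quantity chosen after its values were seen, was 1.94, 2.45 and 2.56 in the D1240A libraries, 1.75, 2.41 and 1.70 in F1295A, 1.92, 2.07 and 2.38 in WT, and 0.0803, 0.0324 and 0.0641 in TKO. The 3 vector lines overlapped in this ratio although both genes were lower in the mutants than in WT.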
